A study of Mus musculus with 8 samples.

Results

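The genes described here are 9 Toll-like receptor genes, Tlr1, Tlr2, Tlr3, Tlr4, Tlr6, Tlr7, Tlr8, Tlr9 and Tlr13, together with Myd88, in mouse bone marrow-derived macrophages with and without RANKL. They were taken by gene symbol from a table of 24940 genes. All 10 were found, and all 10 were among the 11040 genes high enough to be tested. The cells were bone marrow-derived macrophages of C57BL/6 mice aged 6 to 8 weeks, precursors that can become bone-resorbing osteoclasts. Bone marrow cells spent 16 h in M-CSF, the growth factor of this lineage, at 5 ng/ml. The cells that had not attached were then grown for 3 days in M-CSF at 30 ng/ml, and the attached cells were kept. A short hairpin RNA had been introduced, NCsh or TMBIM6sh by its label, and the cells stayed in M-CSF at 30 ng/ml in all groups. RANKL, which turns such precursors into osteoclasts, was left out or given at 100 ng/ml for 24 h, which made 4 groups of 2 libraries: NCsh without RANKL, NCsh with RANKL, TMBIM6sh without RANKL and TMBIM6sh with RANKL. The treatment text is the same for all samples and names both loss of TMBIM6 and RANKL, so the groups rest on the sample titles and the treatment labels. NCsh is not spelled out, and each label names 1 hairpin, so the loss of the Tmbim6 transcript cannot be told apart from other effects of the hairpin. Nothing says whether the duplicates are separate cultures or animals, and the p-values therefore measure the spread between these libraries, which may be technical. In RNA from whole cultures, fewer cells of a type and less RNA per cell cannot be told apart.

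Toll-like receptors recognise molecules of microbes and, in some settings, of damaged cells. Those at the cell surface (Tlr1, Tlr2, Tlr4, Tlr6) bind lipoproteins and lipopolysaccharide, while those in endosomes (Tlr3, Tlr7, Tlr8, Tlr9, Tlr13) bind nucleic acids. All of them except Tlr3 can signal through the adaptor Myd88, which recruits Irak kinases and Traf6 and leads to NF-kappaB and MAP kinase activity. The receptor for RANKL also uses Traf6, and ligands of these receptors are known to restrain early osteoclast precursors while favouring cells already committed to becoming osteoclasts.

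Each library held 25475000 to 28595000 tags, and between 83.4% and 86.2% of them lay in gene exons. Tmbim6, the gene the hairpin is named for, stood at 332 ± 2.60 RPKM (SD, n = 2) in NCsh without RANKL and 315 ± 8.48 in NCsh with RANKL. It stood at 11.4 ± 0.395 and 10.2 ± 0.305 RPKM in the matching TMBIM6sh groups, which is where the labels put the hairpin. RPKM is the number of tags per kilobase of exon, scaled to the tags of the library. Levels compared between genes therefore rest on the exon length used for each gene. Of 9 macrophage markers 9 were tested, and they summed to between 7500 and 10800 RPKM in each library. Of 7 osteoclast markers 2 were tested, and the list summed to 59.2 to 66.1 RPKM in NCsh without RANKL, 57.3 to 65.5 with it, 52.6 to 54.7 in TMBIM6sh without RANKL and 58.0 to 65.9 with it. Nearly all of this was Acp5, an acid phosphatase, at 50.9 to 64.7 RPKM, while Ctsk, the collagen-degrading protease of mature osteoclasts, was at most 0.075 RPKM in any library, with or without RANKL.

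The 10 genes spanned a wide range of levels. Tlr13 stood first with a mean of 106 RPKM over the 8 libraries, above 95.4% of the genes tested. It was followed by Tlr2 at 45.3, Tlr7 at 37.6, Tlr8 at 31.2, Tlr1 at 25.5 and Myd88 at 21.8 RPKM. Tlr4, the lipopolysaccharide receptor, had 9.77 RPKM, and Tlr6, Tlr9 and Tlr3 closed the order with 5.93, 5.61 and 3.47 RPKM. The steps from Tlr13 to Tlr2, from Myd88 to Tlr4 and from Tlr4 to Tlr6 held between any library of the higher gene and any library of the lower one. The ranges of the other neighbours in this order overlapped. The place of Tlr4 rests on an exon length of 7886 bases, where its longest protein-coding transcript in GENCODE has 4077. A shorter length would raise its RPKM, so its steps to Myd88 and Tlr6 depend on that length. The lowest number of tags behind any of these values was 289, for Tlr9. The remaining mouse receptors were close to silent: Tlr5, the flagellin receptor, was at most 0.172 RPKM, Tlr11 at most 0.024 and Tlr12 at most 0.022.

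**Figure D1:**
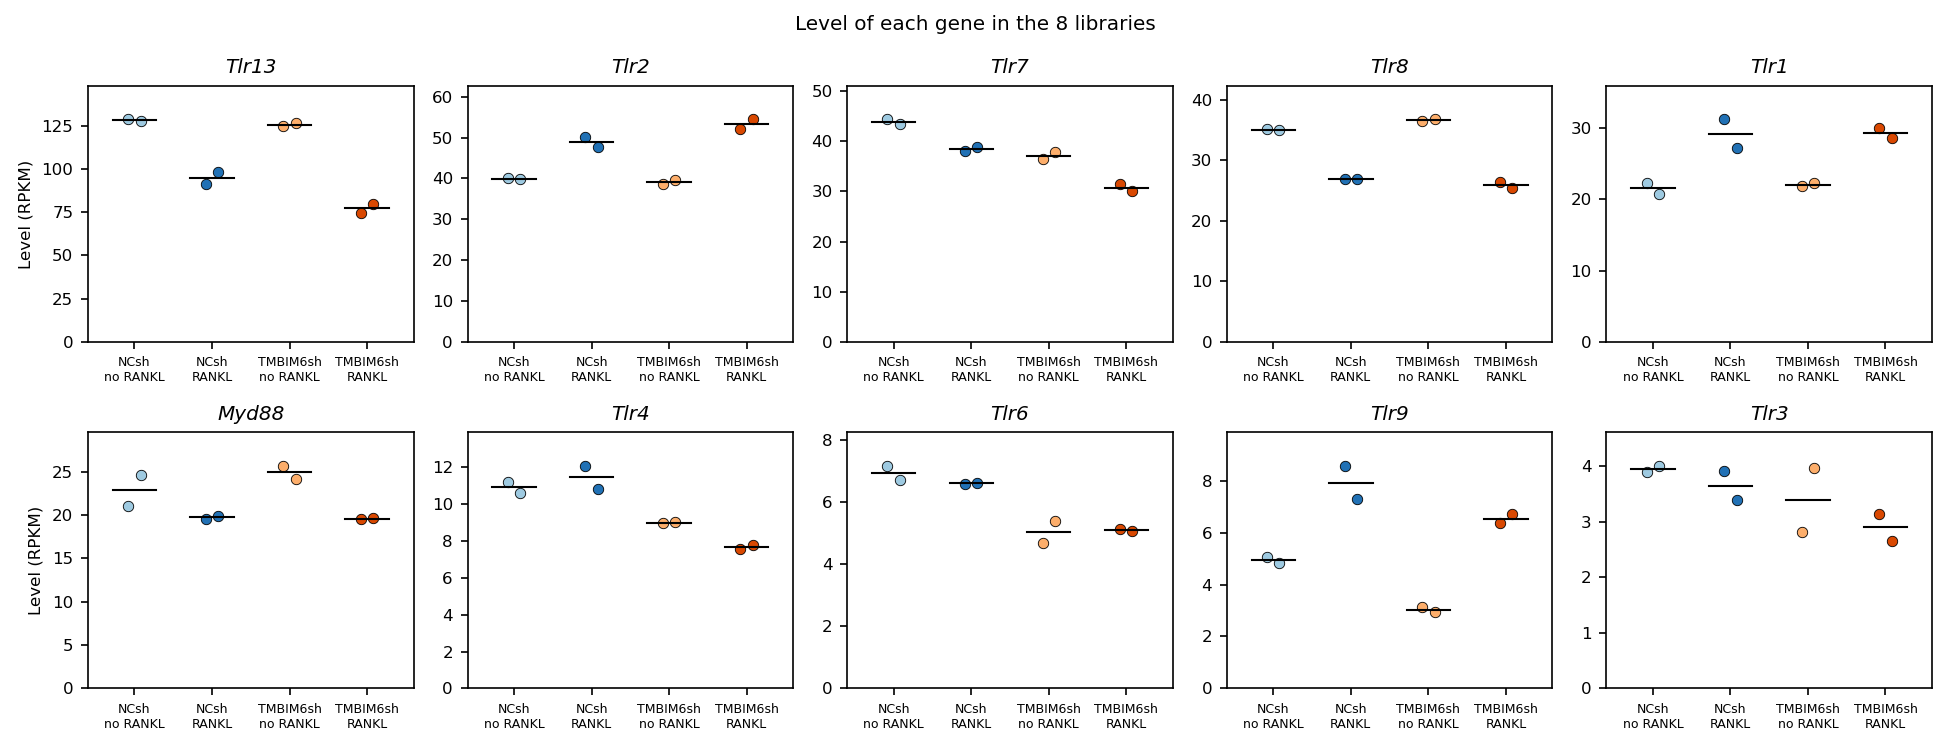
Level in RPKM (vertical axis, from 0, a scale of its own for each gene) of the 10 genes in the 4 groups. Each point is 1 library and each line the mean of 2 libraries. Tlr13, Tlr8 and Tlr7 sit lower with RANKL than without it under either hairpin, Tlr9, Tlr1 and Tlr2 sit higher, and Tlr4 and Tlr6 sit lower with TMBIM6sh than with NCsh.

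Of the 10 genes 8 matched an entry of the promoter table from RefSeq (GRCm38.p6, the mm10 assembly), all but Tlr4 and Tlr7. The 250 bases before the start site are shown for the 4 receptors whose RANKL call in TMBIM6sh cells held under all 16 alternative analyses, Tlr2 and Tlr9 as genes that rose, and Tlr8 and Tlr13 as genes that fell. They lie at chr3:83841609-83841858 (minus strand) for Tlr2, chr9:106222348-106222597 (plus strand) for Tlr9, chrX:167264330-167264579 (minus strand) for Tlr8 and chrX:106143025-106143274 (plus strand) for Tlr13. Each is written 5′ to 3′ along the strand of its gene, and capitals mark matches to the motifs spelled out after them. Positions count back from the start site in that table.
Tlr2: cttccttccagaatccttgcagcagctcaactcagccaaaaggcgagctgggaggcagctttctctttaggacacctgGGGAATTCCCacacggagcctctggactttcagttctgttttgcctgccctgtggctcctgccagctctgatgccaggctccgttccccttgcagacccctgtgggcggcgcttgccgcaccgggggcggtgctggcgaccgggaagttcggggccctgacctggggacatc
Tlr9: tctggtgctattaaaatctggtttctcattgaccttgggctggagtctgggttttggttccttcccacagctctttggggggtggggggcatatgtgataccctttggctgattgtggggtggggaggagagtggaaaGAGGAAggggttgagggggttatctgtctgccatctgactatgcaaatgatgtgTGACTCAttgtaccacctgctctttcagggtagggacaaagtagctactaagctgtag
Tlr8: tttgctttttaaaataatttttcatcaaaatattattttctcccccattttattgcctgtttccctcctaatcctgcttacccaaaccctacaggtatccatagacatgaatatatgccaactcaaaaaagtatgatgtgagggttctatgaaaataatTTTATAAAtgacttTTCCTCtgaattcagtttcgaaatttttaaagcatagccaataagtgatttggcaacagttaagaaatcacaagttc
Tlr13: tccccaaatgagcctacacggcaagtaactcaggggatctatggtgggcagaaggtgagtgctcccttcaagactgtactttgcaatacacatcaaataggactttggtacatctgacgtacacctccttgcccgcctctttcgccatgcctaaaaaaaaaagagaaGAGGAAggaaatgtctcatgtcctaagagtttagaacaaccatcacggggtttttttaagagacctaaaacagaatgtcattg
The 6 motifs searched, on both strands, were GAGGAA (the ETS core of PU.1 sites), GGGANNNNCC (kappaB-like), GAAANNGAAA (interferon-response-like), TGANTCA (AP-1), TTGCNNCAA (C/EBP-like) and TATAAA. Tlr2 had a kappaB-like match that starts at base -172 from the start site, and 17.6% of 32851 such windows in the table held one. GAGGAA stood at -112 in Tlr9, at -77 in Tlr8 and at -83 in Tlr13, and 23.3% of all windows held it. Tlr9 also had an AP-1 match at -58, which 6.75% of windows held. In Tlr8 matches to TATAAA at -91 and -89, on opposite strands, overlap, and 12.4% of windows held that motif. The windows also differ in composition: Tlr2 was 62.8% G or C with 11 CpG sites, Tlr13 44.4% with 5, Tlr8 31.2% with 1, and Tlr9 50.4% with 0 CpG sites. Among the others, Tlr3 had kappaB-like matches at -211 and -23. Myd88 had an interferon-response-like match at -40, a motif that 2.98% of windows held, and TATAAA matches at -164 and -160. Tlr6 had a C/EBP-like match at -162, as 1.74% of windows did, and TATAAA matches at -180, -150 and -109, while Tlr1 had none of the 6. These matches describe letters in a window, and nothing in these data measures binding there.

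RANKL moved receptors in both directions. In NCsh cells Tlr1, Tlr2 and Tlr9 rose (3 of 10, where 11.0% of the genes tested were called higher) and Tlr8 and Tlr13 fell (2 of 10, where 3.98% were called lower). A call is an adjusted p under 0.05 from limma over all 11040 genes. After the libraries were rescaled by the median ratio of their genes, the background was 7.37% higher and 7.30% lower, and Tlr7 and Myd88 were called lower as well. In TMBIM6sh cells the same 3 receptors were called higher (3 of 10 against 8.53% of genes) and Tlr7, Tlr8, Tlr13 and Myd88 lower (4 of 10 against 6.89%). The median difference of the 10 genes was -0.08 in NCsh and -0.18 in TMBIM6sh on the log2(RPKM + 1) scale, and that of all genes tested 0.06 and 0.02. Without NCsh with RANKL library 1, 3 members were called in NCsh, and without either library of TMBIM6sh without RANKL, 4 were called in TMBIM6sh. Differences between groups are given on the log2(RPKM + 1) scale throughout, which understates the change of genes at a few RPKM.

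Between hairpins all called receptors were lower in TMBIM6sh cells. Without RANKL these were Tlr4, Tlr6, Tlr7 and Tlr9 (4 of 10 lower, where 13.8% of genes were, and 0 of 10 higher, where 10.4% were). With RANKL they were Tlr4, Tlr6, Tlr7 and Tlr13 (4 of 10 lower against 19.7% of genes, and 0 of 10 higher against 8.93%). Rescaling by the median ratio moved this last background to 15.6% lower and 13.6% higher, and it took away the call of Tlr6 (adjusted p = 0.0503) and added one of Tlr2 as higher. The median difference of the 10 genes was -0.11 without RANKL and -0.25 with it, and that of all genes -0.02 and -0.07. Leaving out TMBIM6sh without RANKL library 1 or 2 left 1 or 2 calls without RANKL. Leaving out NCsh with RANKL library 2 or TMBIM6sh with RANKL library 1 left 2 calls with RANKL. The comparisons share groups with each other, so their counts are not independent.

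**Figure D2:**
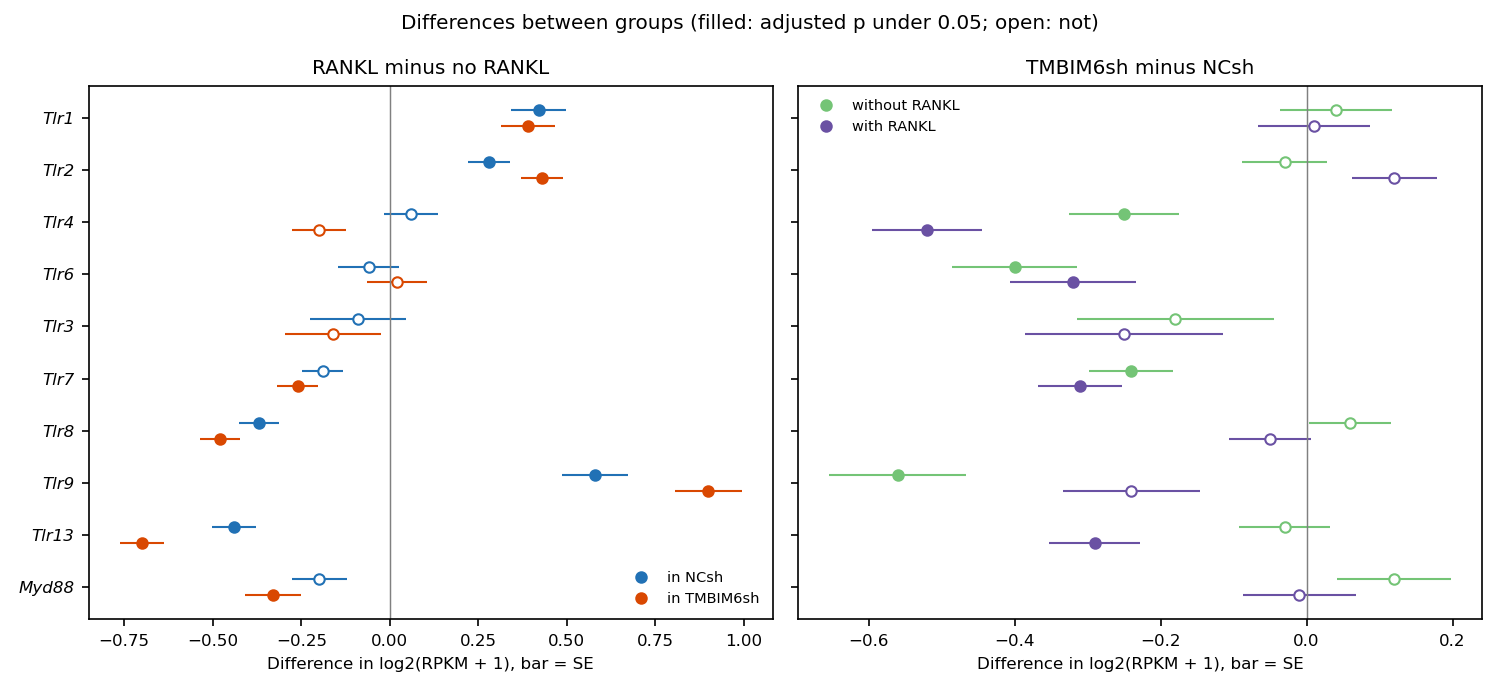
Difference in log2(RPKM + 1) between groups (horizontal axis) for the 10 genes, RANKL minus no RANKL on the left and TMBIM6sh minus NCsh on the right. Points are estimates from 2 libraries against 2, bars are SE, and filled points passed an adjusted p of 0.05. On the left Tlr9 lies farthest to the right (0.58 in NCsh and 0.90 in TMBIM6sh) and Tlr13 farthest to the left (-0.44 and -0.70), and on the right all filled points lie below 0.

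Among the surface receptors, Tlr2 is the shared partner that pairs with Tlr1 for triacylated and with Tlr6 for diacylated bacterial lipoproteins. Its gene lies at chr3:83836272-83841608 on the minus strand. Tlr2 levels were 40.1 and 39.8 RPKM in NCsh without RANKL, 50.1 and 47.6 in NCsh with RANKL, 38.6 and 39.7 in TMBIM6sh without RANKL and 52.0 and 54.4 in TMBIM6sh with RANKL. Under each hairpin both libraries with RANKL were above both without it. Such separation was common: 39.0% of all genes lay wholly higher with RANKL in NCsh and 32.2% in TMBIM6sh, and 17.1% and 26.2% wholly lower. Between hairpins 27.7% of all genes lay wholly higher in TMBIM6sh without RANKL and 23.7% with it, and 33.9% and 42.7% wholly lower. The rise was 0.28 (SE 0.0583, adjusted p = 0.0109) in NCsh and 0.43 (SE 0.0583, adjusted p = 0.000977) in TMBIM6sh, or 1.22-fold and 1.36-fold in mean RPKM. Without NCsh with RANKL library 1 the NCsh call was lost (0.25, adjusted p = 0.106). Between hairpins Tlr2 was not called, with -0.03 without RANKL (adjusted p = 0.772) and 0.12 with it (adjusted p = 0.151), although rescaling gave 0.18 with an adjusted p of 0.0261.

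Tlr1 and Tlr6 are neighbours, Tlr1 at chr5:64924680-64932699 and Tlr6 at chr5:64952030-64960096, both on the minus strand and 19.3 kb apart. They are near-copies over part of their length: 454 words of 50 bases occur in both transcripts, 15.3% of those of Tlr1 and 12.5% of those of Tlr6, so the split of reads between them is uncertain. Tlr1 stood at 22.3 and 20.7 RPKM in NCsh without RANKL and at 31.2 and 27.2 with it. In TMBIM6sh it stood at 21.9 and 22.2 RPKM without RANKL and at 30.0 and 28.5 with it, so all 4 libraries with RANKL were above all 4 without. The rise was 0.42 (SE 0.0765, adjusted p = 0.00576) in NCsh and 0.39 (SE 0.0765, adjusted p = 0.00729) in TMBIM6sh. It lost its call in NCsh without NCsh with RANKL library 1 (adjusted p = 0.0589). In TMBIM6sh it did so without TMBIM6sh without RANKL library 1 (0.0587) or 2 (0.0505) or TMBIM6sh with RANKL library 1 (0.0583). The hairpins did not differ in Tlr1 by a passing test, with a 95% interval of -0.17 to 0.18 with RANKL.

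Tlr6 moved with the hairpin where its neighbour did not pass. Its levels were 7.18 and 6.73 RPKM in NCsh without RANKL, 6.60 and 6.64 in NCsh with RANKL, 4.68 and 5.39 in TMBIM6sh without RANKL and 5.16 and 5.08 in TMBIM6sh with RANKL. All 4 NCsh libraries were above all 4 TMBIM6sh libraries. The difference was -0.40 (SE 0.0858, adjusted p = 0.00847) without RANKL and -0.32 (SE 0.0858, adjusted p = 0.0212) with RANKL. Without TMBIM6sh without RANKL library 1 the first had an adjusted p of 0.0802. The second lost its call without any 1 of the 4 libraries with RANKL, with adjusted p-values of 0.0746 to 0.0873. RANKL gave -0.06 in NCsh (adjusted p = 0.677) and 0.02 in TMBIM6sh (adjusted p = 0.910).

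Tlr4 is the receptor for lipopolysaccharide and lies at chr4:66827551-66846581 on the plus strand. It stood at 11.2 and 10.6 RPKM in NCsh without RANKL, 12.1 and 10.8 in NCsh with RANKL, 8.97 and 9.05 in TMBIM6sh without RANKL and 7.59 and 7.79 in TMBIM6sh with RANKL. The 4 NCsh libraries again lay above the 4 TMBIM6sh libraries. With RANKL the difference was -0.52 (SE 0.0756, adjusted p = 0.000947), which left TMBIM6sh at 0.670 times the NCsh mean, and it was called under all 16 alternatives tried. Without RANKL it was -0.25 (SE 0.0756, adjusted p = 0.0378) and lost its call under 8 of the 16, among them leaving out any 1 of the 4 libraries compared (adjusted p = 0.0576 to 0.158). RANKL itself gave 0.06 in NCsh (adjusted p = 0.621) and -0.20 in TMBIM6sh (adjusted p = 0.103), and neither passed. Of the proteins that serve Tlr4, Cd14, which hands over lipopolysaccharide, fell with RANKL in NCsh from 417 ± 22.7 to 333 ± 10.2 RPKM (-0.32, adjusted p = 0.0146), and without either NCsh with RANKL library it was not called (adjusted p up to 0.111). Ly96, the subunit that binds the lipid, was at 18.2 ± 3.92, 20.6 ± 0.107, 14.5 ± 1.54 and 16.0 ± 1.40 RPKM in the 4 groups in the order above and was called in no comparison.

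Of the endosomal receptors Tlr13, which recognises bacterial ribosomal RNA, was the highest and lies at chrX:106143275-106160493 on the plus strand. Tlr13 levels were 129 and 128 RPKM in NCsh without RANKL, 91.0 and 98.1 in NCsh with RANKL, 125 and 127 in TMBIM6sh without RANKL and 74.5 and 80.0 in TMBIM6sh with RANKL. The 4 libraries without RANKL lay together, and the 4 with RANKL lay below them, TMBIM6sh under NCsh. The fall with RANKL was -0.44 (SE 0.0624, adjusted p = 0.00177) in NCsh and -0.70 (SE 0.0624, adjusted p = 0.000111) in TMBIM6sh, to 0.737 and 0.615 times the level without RANKL. Both calls held under all 16 alternatives. The hairpins differed by -0.03 without RANKL (95% interval -0.17 to 0.11) and by -0.29 with it (SE 0.0624, adjusted p = 0.00764). The latter lost its call without NCsh with RANKL library 2 (-0.23, adjusted p = 0.0744) or TMBIM6sh with RANKL library 1 (-0.24, adjusted p = 0.0521). The 9 macrophage markers summed to 9400 to 10800 RPKM in NCsh without RANKL, 9200 to 9280 with it, 8590 to 8600 in TMBIM6sh without RANKL and 7500 to 8120 with it. The sum was mostly Lyz2 (5280 to 8071 RPKM), so it says little of the other markers. Of the markers only Adgre1, the F4/80 antigen, had a higher mean with RANKL. It stood at 817 ± 2.09 and 879 ± 16.0 RPKM in NCsh and 747 ± 14.4 and 861 ± 56.6 in TMBIM6sh. The means of all the other markers were lower with RANKL under both hairpins. Csf1r, the M-CSF receptor, had 265 ± 1.92 and 187 ± 4.14 RPKM in NCsh and 247 ± 2.76 and 153 ± 8.59 in TMBIM6sh. The markers' part in the Tlr13 result was not tested.

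Tlr7 and Tlr8, sensors of single-stranded RNA and its fragments, lie 40.6 kb apart on the X chromosome, at chrX:167304926-167330571 and chrX:167241123-167264329, both on the minus strand. Tlr8 stood at 35.2 and 35.0 RPKM in NCsh without RANKL, 26.9 and 26.9 in NCsh with RANKL, 36.5 and 36.8 in TMBIM6sh without RANKL and 26.5 and 25.5 in TMBIM6sh with RANKL. Its duplicates were close, and all 4 libraries with RANKL were below all 4 without. The fall was -0.37 (SE 0.0561, adjusted p = 0.00229) in NCsh and -0.48 (SE 0.0561, adjusted p = 0.000423) in TMBIM6sh, and both calls held under all 16 alternatives. Between hairpins Tlr8 gave 0.06 without RANKL (adjusted p = 0.486) and -0.05 with it (adjusted p = 0.556), and neither passed.

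Tlr7 was lower with the TMBIM6 hairpin in both conditions. It stood at 44.4 and 43.5 RPKM in NCsh without RANKL, 38.1 and 38.9 in NCsh with RANKL, 36.5 and 37.9 in TMBIM6sh without RANKL and 31.5 and 30.1 in TMBIM6sh with RANKL. Without RANKL the hairpins differed by -0.24 (SE 0.0577, adjusted p = 0.0163), and under RANKL they differed by -0.31 (SE 0.0577, adjusted p = 0.00339). The call with RANKL held under all 16 alternatives, and the one without RANKL was lost without TMBIM6sh without RANKL library 1 (adjusted p = 0.129) or 2 (0.0683). RANKL gave a fall of -0.26 in TMBIM6sh (SE 0.0577, adjusted p = 0.0131) and a difference of -0.19 in NCsh that did not pass (adjusted p = 0.0594). The fall in TMBIM6sh lost its call without TMBIM6sh without RANKL library 1 (0.0656) or 2 (0.123) or TMBIM6sh with RANKL library 2 (0.0759). After rescaling, the NCsh difference of -0.26 passed with an adjusted p of 0.0196.

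Tlr9, the receptor for unmethylated CpG DNA, lies at chr9:106222598-106226876 on the plus strand and had the largest RANKL response of the 10 genes. Its levels were 5.08 and 4.82 RPKM in NCsh without RANKL, 8.57 and 7.28 in NCsh with RANKL, 3.15 and 2.92 in TMBIM6sh without RANKL and 6.36 and 6.72 in TMBIM6sh with RANKL. The 4 groups did not overlap, with TMBIM6sh without RANKL lowest and NCsh with RANKL highest. RANKL raised it by 0.58 in NCsh (SE 0.0939, adjusted p = 0.00323) and by 0.90 in TMBIM6sh (SE 0.0939, adjusted p = 0.000241), or 1.60-fold and 2.15-fold in mean RPKM. Without RANKL the difference between hairpins was -0.56 (SE 0.0939, adjusted p = 0.00237), with TMBIM6sh at 0.613 times the NCsh mean. These 3 calls held under all 16 alternatives. With RANKL the difference between hairpins was -0.24, with a 95% interval of -0.45 to -0.03, and it did not pass (adjusted p = 0.0839).

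B cells and plasmacytoid dendritic cells are known for high Tlr9, and their markers were read beside it. The 5 B cell markers, of which 1 was tested, summed to 1.09 to 2.08 RPKM in NCsh without RANKL, 1.92 to 3.13 in NCsh with RANKL, 0.435 to 0.620 in TMBIM6sh without RANKL and 0.928 to 1.30 in TMBIM6sh with RANKL. As for Tlr9, the lowest values were in TMBIM6sh without RANKL and the highest in NCsh with RANKL. Unlike for Tlr9, the range of NCsh without RANKL overlapped those of NCsh with RANKL and of TMBIM6sh with RANKL. Nearly all of the sum was Cd79b, a subunit of the B cell receptor, at 0.329 to 3.07 RPKM. Its means were 1.52, 2.46, 0.447 and 1.08 RPKM in the groups in the same order. Like those of Tlr9, they were higher with RANKL under each hairpin and lower with TMBIM6sh in each condition. Cd79a was at most 0.106 RPKM in any library, Ms4a1 at most 0.034 and Pax5 at most 0.033 RPKM. The 6 plasmacytoid markers, of which 2 were tested, summed to between 74.2 and 94.4 RPKM, carried by Bst2 and Tcf4, genes that macrophages also express. Siglech was at most 0.035 RPKM, Ly6d was listed at 0, and Spib was 0.026 to 0.136 RPKM without RANKL and 0.381 to 0.862 with it. The part of Cd79b and Spib in the Tlr9 result was not tested.

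Tlr3, the receptor for double-stranded RNA that signals through Ticam1, lies at chr8:45395665-45410380 on the minus strand and passed no test. It stood at 3.89 and 4.0 RPKM in NCsh without RANKL, 3.91 and 3.38 in NCsh with RANKL, 2.81 and 3.97 in TMBIM6sh without RANKL and 3.13 and 2.66 in TMBIM6sh with RANKL. The duplicates of TMBIM6sh without RANKL alone span most of the range of the 8 libraries. The 4 differences ran from -0.25 to -0.09 with adjusted p-values of 0.189 to 0.693. Tags were counted on both strands, and 381 bases of Tlr3 exons (7.32%) overlap exons of the antisense gene Gm45542.

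Myd88, the shared adaptor, lies at chr9:119335988-119340040 on the minus strand. Its levels were 21.1 and 24.6 RPKM in NCsh without RANKL, 19.6 and 19.9 in NCsh with RANKL, 25.7 and 24.2 in TMBIM6sh without RANKL and 19.5 and 19.6 in TMBIM6sh with RANKL. All 4 libraries with RANKL were below all 4 without it. The fall was -0.33 in TMBIM6sh (SE 0.0777, adjusted p = 0.0176), and the difference of -0.20 in NCsh did not pass (adjusted p = 0.120). The call in TMBIM6sh was lost when any 1 of its 4 libraries was left out (adjusted p = 0.0628 to 0.138) or when genes were not filtered by level (0.0553). In NCsh a call appeared without NCsh without RANKL library 1 (-0.31, adjusted p = 0.0246) or after rescaling (-0.27, adjusted p = 0.0381). Over 290 bases (11.3%) Myd88 exons overlap those of Acaa1a, a peroxisomal thiolase gene on the other strand with a mean of 22.0 RPKM, so part of either value can come from the other gene. Acaa1a went from 24.9 to 21.3 RPKM with RANKL in NCsh and from 22.1 to 19.7 in TMBIM6sh. These differences of -0.22 and -0.16 did not pass in limma (adjusted p = 0.147 and 0.315). The part of Acaa1a in the Myd88 result was not tested.

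The difference of the RANKL response between hairpins was tested directly. None of the 10 genes passed in limma (0 of 10, where 0% of genes tested were called higher and 0.00906% lower), while 3 of the 10 and 857 of 11040 genes had an unadjusted p under 0.05. These 3 were Tlr13 at -0.26 (adjusted p = 0.609), Tlr4 at -0.27 (adjusted p = 0.632) and Tlr9 at 0.32 (adjusted p = 0.633). No member is therefore shown to respond differently to RANKL in the 2 hairpins, and with 2 libraries a group the 95% interval for Tlr9 runs from 0.02 to 0.62. The 1 gene called was Snord104, a small nucleolar RNA that is named after its values were seen.

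Ratios between receptors of the same library do not depend on its scaling. The 9 receptors summed to 296 ± 3.52 RPKM in NCsh without RANKL, 268 ± 1.14 with it, 281 ± 4.79 in TMBIM6sh without RANKL and 239 ± 2.80 with it. The 4 surface receptors made up 26.8% ± 0.385 and 26.8% ± 0.0885 of that sum without RANKL in NCsh and TMBIM6sh. With RANKL they made up 35.9% ± 1.90 and 39.9% ± 0.146, and Tlr13 alone went from 43.4% ± 0.359 to 35.3% ± 2.01 in NCsh and from 44.7% ± 0.259 to 32.3% ± 1.23 in TMBIM6sh. The ratio of Tlr1 to Tlr6, the alternative partners of Tlr2, was 3.09 ± 0.0237, 4.42 ± 0.445, 4.40 ± 0.398 and 5.72 ± 0.141 in the 4 groups. It was thus lowest with neither RANKL nor the TMBIM6 hairpin and highest with both. The split of reads between these partly identical transcripts is uncertain, as said above. The ratio of Tlr2 to Tlr4 was lowest and highest in the same groups, with 3.66 ± 0.130, 4.27 ± 0.168, 4.34 ± 0.0522 and 6.92 ± 0.101. Its size, though not its order among the groups, rests on the exon length used for Tlr4. Tlr7 to Tlr8 was 1.25 ± 0.0118, 1.43 ± 0.0213, 1.01 ± 0.0200 and 1.19 ± 0.00540, higher with RANKL and lower with TMBIM6sh. Tlr13 to Tlr9 was 25.9 ± 0.847 and 41.5 ± 2.62 without RANKL and 12.0 ± 2.01 and 11.8 ± 0.128 with it in NCsh and TMBIM6sh, so the 2 hairpins were apart without RANKL and overlapped with it. These ratios were chosen after the values of the genes were known and were not tested.

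**Figure D3:**
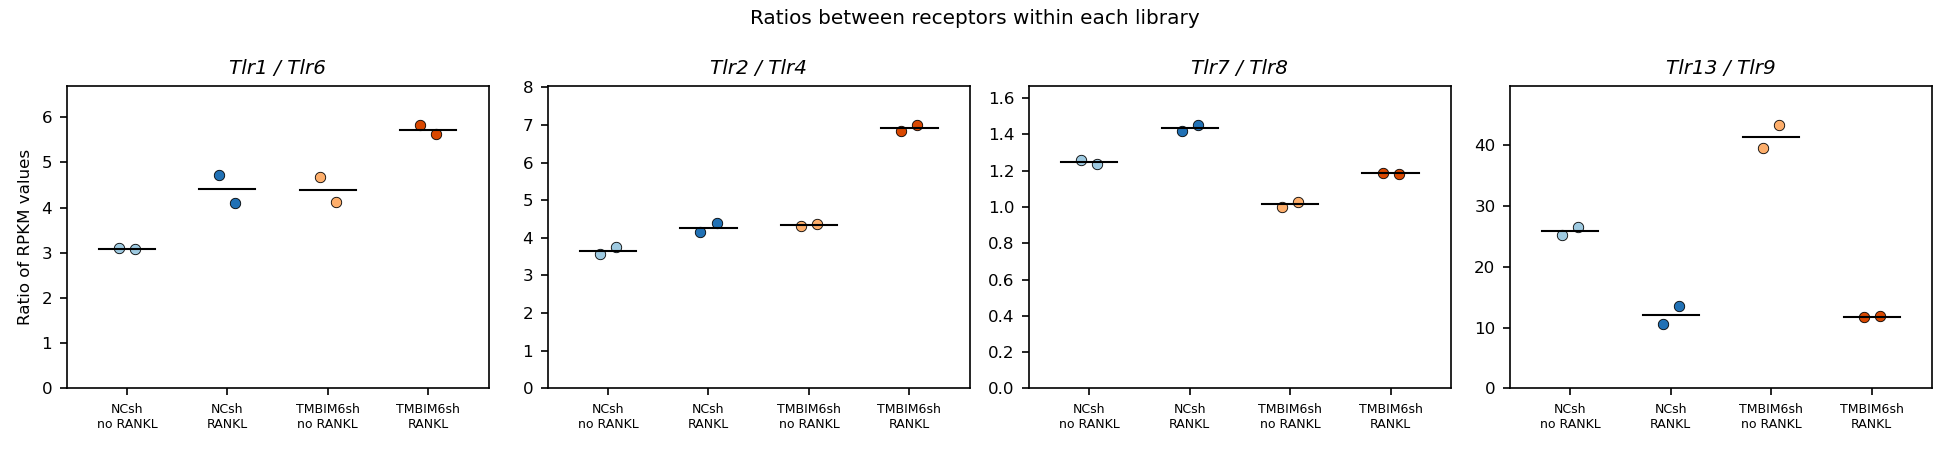
Ratio of RPKM values of 2 receptors within each library (vertical axis, from 0) in the 4 groups. Each point is 1 library and each line the mean of 2 libraries. Tlr2 to Tlr4 stands at 6.92 in TMBIM6sh with RANKL and between 3.66 and 4.34 in the other groups, and Tlr13 to Tlr9 lies near 12.0 in both groups with RANKL.

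The partners of the receptors were read from a list of 102 pathway genes, all in the table and 84 of them tested. RANKL raised 7 and lowered 14 of the 84 in NCsh, where 11.0% of all genes tested were called higher and 3.98% lower. It raised 4 and lowered 16 in TMBIM6sh, where the shares were 8.53% and 6.89%. With the TMBIM6 hairpin 21 were higher and 13 lower without RANKL (10.4% and 13.8% of all genes), and 17 higher and 17 lower with it (8.93% and 19.7%). Rescaling by the median ratio changed the shares of all genes called higher and lower. They became 7.37% and 7.3% for RANKL in NCsh, and 8.39% and 8.69% in TMBIM6sh. Between hairpins they became 11.8% and 13.5% without RANKL, and 13.6% and 15.6% with it. The class counts below stand beside the shares without rescaling. Of the 84, 0 passed the limma test of the difference in RANKL response (9 at an unadjusted p under 0.05). The median difference of the 84 was -0.02, -0.08, 0.03 and -0.04 in these 4 comparisons, beside 0.06, 0.02, -0.02 and -0.07 over all genes. Of the calls, 9 of 21, 10 of 20, 12 of 34 and 20 of 34 held under all 16 alternatives. Without NCsh with RANKL library 1 or 2 the first count was 13 or 12. Without TMBIM6sh without RANKL library 1 or 2 the second was 11 or 12 and the third 15 or 12, and without TMBIM6sh with RANKL library 1 the second was 13.

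Ligands of Tlr3, Tlr7, Tlr8, Tlr9 and Tlr13 are prepared in the endosome. Genes listed for endosomal processing and ligand supply formed a class of 13, all tested. With RANKL 0 rose and 2 fell in NCsh (11.0% and 3.98% of all genes) and 0 rose and 2 fell in TMBIM6sh (8.53% and 6.89%). With the TMBIM6 hairpin 0 were higher and 6 lower without RANKL (10.4% and 13.8% of all genes), and 0 higher and 6 lower with it (8.93% and 19.7%). Lgmn, the legumain protease that helps to process endosomal receptors, had 422 ± 29.3, 308 ± 6.86, 271 ± 0.445 and 180 ± 4.40 RPKM in NCsh without and with RANKL and TMBIM6sh without and with RANKL. It was called lower in all 4 comparisons, and the hairpin differences were -0.64 (adjusted p = 0.000176) and -0.77 (adjusted p = 5.23e-05). Slc15a3, an endosomal peptide and muramyl dipeptide transporter, fell with RANKL from 239 ± 1.30 to 178 ± 8.84 RPKM in NCsh and from 252 ± 0.692 to 195 ± 7.94 in TMBIM6sh. Ctsl, a protease that also cuts these receptors, was lower with the TMBIM6 hairpin under RANKL, at 335 ± 19.6 against 450 ± 6.4 RPKM (-0.43, adjusted p = 0.00228). Pld4, an exonuclease that degrades ligands of Tlr9 and Tlr7, was at 213 ± 15.9 against 283 ± 1.20 RPKM in the same comparison (-0.41, adjusted p = 0.00192). These calls held under all 16 alternatives. Of the 6 genes lower with the TMBIM6 hairpin, only Lgmn kept its call under every alternative without RANKL. With RANKL only Lgmn, Ctsl and Pld4 did. Unc93b1, the chaperone that carries the endosomal receptors out of the endoplasmic reticulum, stood at 225 ± 4.94, 204 ± 0.552, 217 ± 0.274 and 192 ± 3.34 RPKM and passed in no comparison.

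Among 10 tested co-receptors and accessory proteins, Hsp90b1, the endoplasmic reticulum chaperone that most Toll-like receptors need to fold, was at 52.9 ± 9.02 RPKM in TMBIM6sh with RANKL and 96.5 ± 1.64 in NCsh with RANKL (-0.87, adjusted p = 0.000244). Its co-chaperone Cnpy3 was higher in the same comparison, at 27.6 ± 4.02 against 19.9 ± 0.0608 RPKM (0.45, adjusted p = 0.00701). Both calls held under all 16 alternatives. Cd36, a scavenger receptor that assists Tlr2 with Tlr6, fell with RANKL from 708 ± 16.6 to 521 ± 10.1 RPKM in NCsh (-0.44, adjusted p = 0.00202) and from 628 ± 4.87 to 393 ± 11.2 in TMBIM6sh (-0.67, adjusted p = 0.000151). Cd180, a relative of Tlr4 that lacks a signalling domain, was higher with the TMBIM6 hairpin at 122 ± 0.331 against 98.6 ± 3.04 RPKM without RANKL (0.30, adjusted p = 0.00757) and 108 ± 6.27 against 91.8 ± 3.30 with it (0.23, adjusted p = 0.0217). The Cd180 calls were lost without TMBIM6sh without RANKL library 1 or 2 and, with RANKL, without NCsh with RANKL library 1 or 2 or TMBIM6sh with RANKL library 2 or in a fit with no intensity trend (adjusted p up to 0.063 and 0.151). In this class 1 gene rose and 4 fell with RANKL in NCsh (11.0% and 3.98% of all genes), and 0 and 3 in TMBIM6sh (8.53% and 6.89%). With the hairpin 3 were higher and 1 lower without RANKL (10.4% and 13.8%), and 3 and 2 with it (8.93% and 19.7%).

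Of the signalling chain below the receptors, Tirap, Irak4, Irak1 and Traf6 did not pass, while other genes were called. Tirap, the bridge between surface receptors and Myd88, stood at 5.50 ± 0.361, 5.36 ± 0.268, 5.01 ± 0.528 and 4.94 ± 0.0537 RPKM in NCsh without and with RANKL and TMBIM6sh without and with RANKL. The kinase Irak4 had 6.54 ± 0.414, 5.65 ± 0.601, 7.45 ± 0.171 and 6.14 ± 0.137 RPKM, and Irak1 24.8 ± 2.27, 26.1 ± 0.990, 24.7 ± 0.608 and 26.1 ± 1.39. Traf6, the ubiquitin ligase shared with RANK, had 4.75 ± 0.228, 5.25 ± 0.158, 5.48 ± 0.116 and 5.73 ± 0.360 RPKM, and none of these 4 genes passed in any comparison. The kinase Irak2 fell with RANKL in TMBIM6sh from 35.3 ± 1.42 to 27.7 ± 2.41 RPKM (-0.34, adjusted p = 0.0116). It was also called lower in TMBIM6sh than in NCsh (33.7 ± 1.49 RPKM) with RANKL. Both Irak2 calls were lost without TMBIM6sh with RANKL library 1. Traf3, which links the receptors to interferon induction and restrains noncanonical NF-kappaB, rose with RANKL from 6.58 ± 0.328 to 11.1 ± 0.0764 RPKM in NCsh and from 9.76 ± 0.340 to 15.6 ± 0.0622 in TMBIM6sh. It was also higher with the TMBIM6 hairpin (0.51 without RANKL and 0.45 with it, adjusted p = 0.000771 and 0.00126), and its 4 calls held under all 16 alternatives. Ticam1, the adaptor of Tlr3, was higher with the TMBIM6 hairpin under RANKL at 10.7 ± 0.182 against 7.61 ± 0.647 RPKM (0.44, adjusted p = 0.00295). Pik3ap1, an adaptor that ties the receptors to PI3K, was higher in TMBIM6sh without RANKL (168 ± 1.35 against 127 ± 5.26 RPKM, 0.40, adjusted p = 0.00108) and with it (146 ± 2.68 against 108 ± 2.18, 0.43, adjusted p = 0.000572). Of 20 tested kinases and ubiquitin ligases, 1 rose and 1 fell with RANKL in NCsh (11.0% and 3.98% of all genes), and 1 and 3 in TMBIM6sh (8.53% and 6.89%). With the hairpin 5 were higher and 1 lower without RANKL (10.4% and 13.8%), and 2 and 3 with it (8.93% and 19.7%).

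Inhibitors of the pathway were called in both directions. Of 15 tested, 5 were higher and 2 lower with the TMBIM6 hairpin without RANKL (10.4% and 13.8% of all genes), and 4 higher and 2 lower with it (8.93% and 19.7%). Tollip, which restrains Irak1, was at 25.8 ± 0.0325 against 17.9 ± 0.604 RPKM without RANKL (0.51, adjusted p = 0.000913) and at 24.4 ± 0.692 against 18.0 ± 1.58 with it (0.42, adjusted p = 0.00214). The deubiquitinase Usp25 was at 35.7 ± 0.660 against 23.3 ± 0.770 RPKM (0.60, adjusted p = 0.000131) and 32.4 ± 0.303 against 23.3 ± 0.557 (0.46, adjusted p = 0.000491). With RANKL 2 rose and 2 fell in NCsh (11.0% and 3.98% of all genes), and 0 rose and 2 fell in TMBIM6sh (8.53% and 6.89%). Atf3, a repressor of inflammatory genes, fell from 128 ± 5.64 to 99.5 ± 1.43 RPKM in NCsh (-0.36, adjusted p = 0.00379).

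Genes that these receptors can induce were read as well, though no ligand of the receptors is named in the labels. Of 17 tested, 2 rose and 3 fell with RANKL in NCsh (11.0% and 3.98% of all genes), and 2 and 5 in TMBIM6sh (8.53% and 6.89%). With the TMBIM6 hairpin 6 were higher and 2 lower without RANKL (10.4% and 13.8%), and 6 and 2 with it (8.93% and 19.7%). Tnf fell with RANKL from 48.8 ± 2.28 to 34.6 ± 1.41 RPKM in NCsh (-0.49, adjusted p = 0.00103) and from 74.3 ± 1.35 to 42.7 ± 0.763 in TMBIM6sh (-0.78, adjusted p = 5.41e-05). Cxcl10, an interferon-inducible chemokine, rose from 1.46 ± 0.618 to 7.57 ± 1.12 RPKM in NCsh (1.82, adjusted p = 0.000775) and from 0.658 ± 0.115 to 7.25 ± 2.41 in TMBIM6sh (2.29, adjusted p = 0.000137). The chemokine Ccl5 was at 62.7 ± 5.76 RPKM in TMBIM6sh against 20.0 ± 3.05 in NCsh without RANKL (1.60, adjusted p = 6.23e-05) and at 57.2 ± 9.35 against 21.6 ± 3.01 with it (1.36, adjusted p = 0.000127). Nfkbiz, an NF-kappaB cofactor induced by these receptors, was also higher (0.78 and 0.90, adjusted p = 6.35e-05 and 2.55e-05), whereas Cd86, a costimulatory ligand, was lower at 7.31 ± 0.0283 against 14.9 ± 0.629 RPKM without RANKL (-0.93, adjusted p = 4.02e-05) and 8.57 ± 0.536 against 17.7 ± 0.772 with it (-0.97, adjusted p = 2.71e-05). Among 5 tested transcription factors Irf7, which drives type I interferon genes below the endosomal receptors, was lower without RANKL at 12.7 ± 0.0481 against 17.2 ± 1.42 RPKM (-0.41, adjusted p = 0.00461). The neutrophil markers summed to 22.5 to 28.1 RPKM in the NCsh libraries and 11.5 to 15.5 in the TMBIM6sh libraries. Nearly all of this was S100a8. Ly6g was listed at 0, and S100a9, Mpo, Elane and Camp were each at most 0.236 RPKM in any library. The part of these markers in the hairpin differences was not tested.

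**Figure D4:**
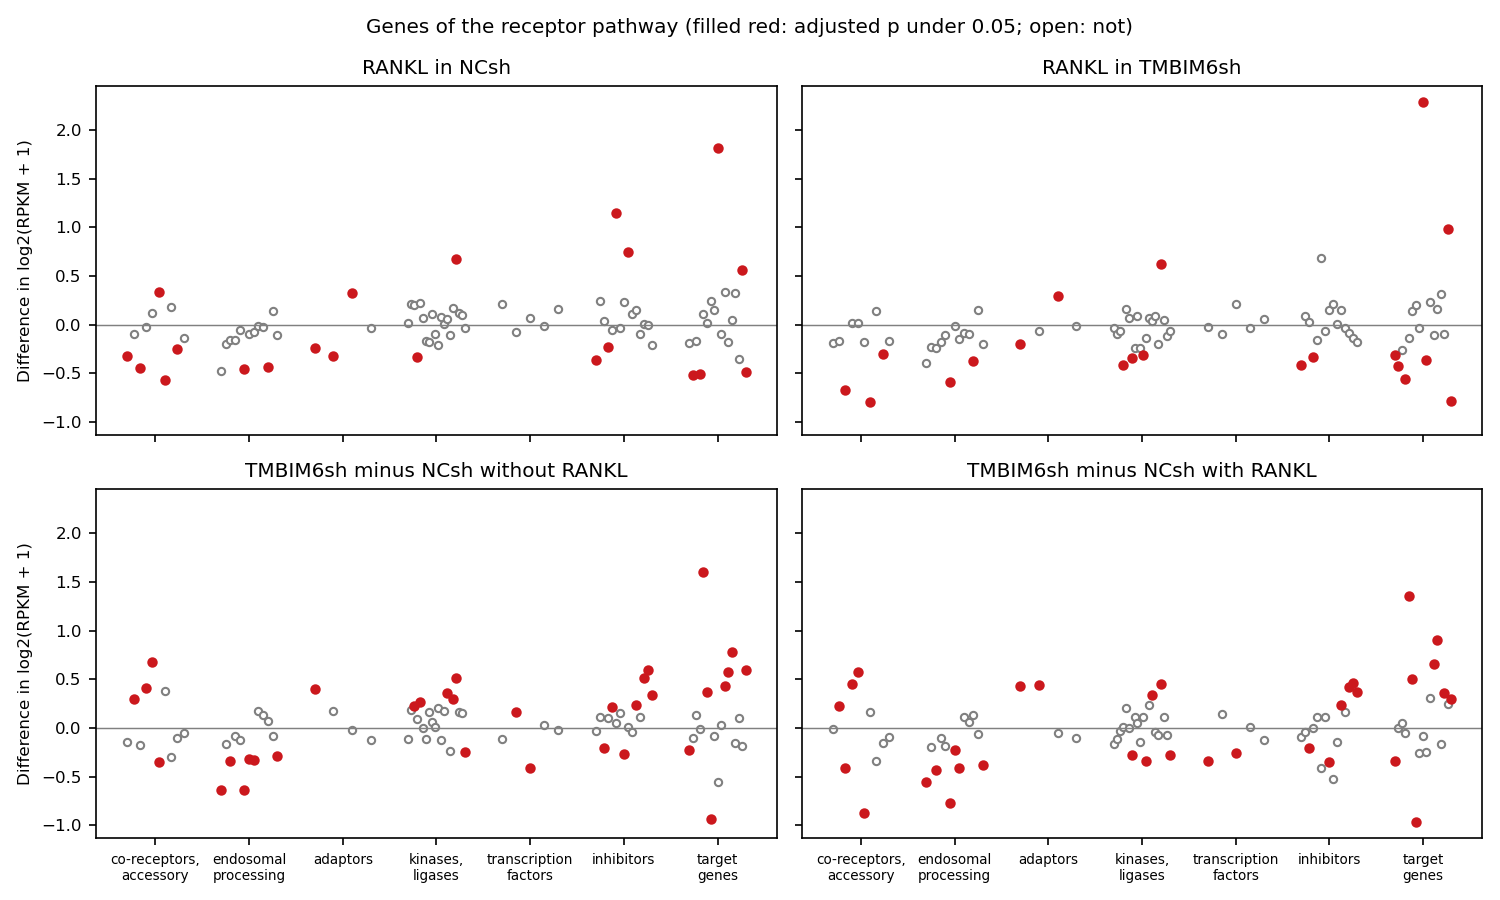
Difference in log2(RPKM + 1) (vertical axis) of the 84 tested pathway genes in 4 comparisons, 1 point per gene, grouped by role along the horizontal axis. Filled red points passed an adjusted p of 0.05. All filled points of endosomal processing lie below 0, while co-receptors, kinases, inhibitors and target genes have filled points on both sides of 0 in the comparisons of hairpins.

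For each of the 9 members called at least once, the genes with the most similar course over the 8 libraries were looked up among 7525 genes, by the root mean square difference of log2(RPKM + 1) after each gene was centred on its own mean. The course of Tlr13 was nearest to that of Csf1r, the receptor for M-CSF (0.0363, where Tlr13 itself varies by 0.304 around its mean), followed by Ggta1 and Esyt1 (0.0417 and 0.0461). Csf1r went from 265 to 187 RPKM with RANKL in NCsh and from 247 to 153 in TMBIM6sh. Tlr9 was nearest to Mcm5, a subunit of the replicative helicase (0.0884 against 0.433), which had 19.0, 29.3, 13.5 and 24.4 RPKM in NCsh without and with RANKL and TMBIM6sh without and with RANKL. Nr1h3, the oxysterol receptor LXR alpha, and the lamin gene Lmnb2 came next (0.0936 and 0.0951). The nearest to Tlr7 was Tspan14 (0.0285), with Arid5b and the lysosomal regulator Tfeb after it (0.0308 and 0.0339), and the nearest to Tlr8 was Litaf (0.0369), with Evl and Cyth4. Tlr4 was nearest to Nsd3 (0.0407), Golim4 and Erap1, Tlr6 to Spata2 (0.0478), Dnmt3a and Napa, and Tlr2 to Ube2l6 (0.0405), Hdgf and Eif6. Tlr1 was nearest to 2410002F23Rik (0.0445), Dvl1 and Prpf38b, and Myd88 to the chemokine gene Ccl3 (0.0454), Tceal8 and Nptn. These are descriptions over 8 libraries in 4 groups that share their scaling.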

How the data were processed

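The values deposited are RPKM per gene, from HOMER's analyzeRepeats with RefSeq models on mm10, per the file headers. The authors counted exon tags on both strands, gave 1 entry per gene under 1 RefSeq transcript, and normalised to exon length and library size. Its column heads say FPKM where the command asks for RPKM. The submitters' processing notes also name HISAT2 and DESeq2. Steps of 1 tag in the values gave the depth (in each library 2618 to 2863 low values were checked, and 100% came out whole to 0.1 tags).

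Genes with at least 1 RPKM in at least 2 libraries were kept. limma 3.58.1 in R 4.3.3 was fitted to log2(RPKM + 1) of all 8 libraries with 1 mean per group and an intensity trend (4 residual and 5.54 prior degrees of freedom), for 5 contrasts with Benjamini-Hochberg adjustment over 11040 genes. The fit was also run on simulated data with the same spread setting for every gene and changes in a single group. That setting is simpler than these data, so the run does not gauge the calls made here. Members and lists were chosen with earlier results of these data known. Named were all members, Tmbim6, 9 fixed partners, up to 4 called pathway genes per class and contrast by smallest p (not all are printed), and 3 genes of similar course per called member, among genes whose mean reached 5 RPKM. Same-numbered libraries of different groups did not deviate together (correlations of -0.065 to 0.062), so they were not paired. Shared words and exon overlaps come from GENCODE M21. The 16 alternatives were 2 other pseudocounts (0.1 and 0.5), 2 other filters, median-ratio scaling, no trend, a replicate block, the 4 libraries of the comparison alone, and each of the 8 libraries left out.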

Additional observations from a re-analysis of the deposited data

How the results depend on the processing

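Of the 20 called differences of the 10 genes, 10 kept their call under all 16 alternatives, 10 lost it under at least 1 and 0 changed sign. The 10 that kept it were Tlr8, Tlr9 and Tlr13 for RANKL in NCsh, Tlr2, Tlr8, Tlr9 and Tlr13 for RANKL in TMBIM6sh, Tlr9 between hairpins without RANKL, and Tlr4 and Tlr7 between hairpins with RANKL. With 1 library left out, the group that keeps 1 library is assumed to vary like the others. Then 3 to 6 members were called for RANKL in NCsh, 4 to 7 for RANKL in TMBIM6sh, 1 to 4 between hairpins without RANKL and 2 to 4 with RANKL, and 12 to 22, 11 to 25, 12 to 33 and 23 to 40 genes of the pathway list. The cause was not tested. With the replicate block the calls among members were 5, 7, 4 and 4, as without it, and those of the pathway list 20, 21, 33 and 35. No member was called for the difference in RANKL response under the block either, with 0 calls.

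Values that changed sign all belonged to differences that were not called. After median-ratio scaling these were Tlr4 for RANKL in NCsh (-0.0038), Tlr8 (0.01) and Myd88 (0.05) between hairpins with RANKL, and Tlr1 in the difference of responses (0.02). With 1 library left out, Tlr4 ran from -0.01 to 0.14 for RANKL in NCsh, and Tlr3 from -0.35 to 0.03 and Tlr6 from -0.06 to 0.11 for RANKL in TMBIM6sh. Between hairpins Tlr1 ran from -0.02 to 0.09 and Tlr3 from -0.38 to 0.01 without RANKL, and Tlr1 from -0.09 to 0.10 with it. In the difference of responses Tlr1 ran from -0.12 to 0.07, Tlr3 from -0.26 to 0.12 and Tlr6 from -0.0023 to 0.17. The fewest tags behind a value of the 10 genes were 289, and what sets the width of the intervals was not tested.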
